A study of Mus musculus with 4 samples.

Results

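The high-mitochondrial cells of good depth are mouse embryonic stem cells (mESC) that reached the depth limits of the usual quality filter but not its limit on mitochondrial RNA. They were selected on 3 measured values. A cell barcode had to reach its library's mean minus 1 SD in both unique molecular identifiers (UMIs, counted RNA molecules) and detected genes, and more than 10% of its UMIs had to come from the mitochondrial genome. Of 41142 barcodes, 32785 reached both depth limits, and 796 of these (2.43%, 95% exact binomial interval 2.26 to 2.60) had a mitochondrial share above 10%. The 31989 cells of the same limits with a share of at most 10% served as the reference within each library. Because the mitochondrial share chose the members, all levels below were computed on counts without the 13 mitochondrially encoded genes, unless stated.

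The study compared E14tg2a.4 mESC, a male wild-type line, with a heterozygous Srrm2 truncation made in the same line by a gene trap (CG0630, a single clone, named Srrm2 hKO), to learn what a lower dose of this splicing factor does to pluripotency. Both lines grew with LIF and were moved to serum-free ESGRO medium for 24 h or 72 h before collection per the labels, which do not say which time applied to which sample. The methods for the single-cell samples instead give 1 other length of growth for all of them, so the time in serum-free medium is not settled. The labels list 2 samples of each genotype, 4 in total, profiled with droplet 3′ single-cell RNA sequencing. The matrix joins the 4 libraries by a number from 1 to 4 that neither the labels nor the files tie to a sample, so no genotype was compared, no library counts as a replicate of another, and no test or p-value is given.

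Mitochondrial messenger RNAs are made and kept inside mitochondria, whereas nuclear transcripts are spread over the nucleus, the cytosol and the surface of the endoplasmic reticulum (ER). A cell that loses cytosolic RNA through a damaged plasma membrane keeps its organelles for longer, which is why a high mitochondrial share is used as a sign of cell damage. A high share can also come from many mitochondria or active mitochondrial transcription. mESC divide rapidly and use both glycolysis and respiration. These are general properties of the measure, and their part in these cells was not tested.

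The members were spread very unevenly over the libraries. Libraries 1 to 4 held 59, 377, 85 and 275 of them. These are 0.722% (0.550 to 0.930), 4.24% (3.83 to 4.68), 1.07% (0.852 to 1.32) and 3.55% (3.15 to 3.99) of the good-depth cells of each library, so that the intervals of libraries 2 and 4 lie apart from those of libraries 1 and 3. The depth limits also differed, at 8261, 6374, 7238 and 5679 UMIs in libraries 1 to 4, so that libraries 2 and 4 admitted shallower cells. Members under 12000 UMIs numbered 23, 346, 67 and 269, and the excess of libraries 2 and 4 lay among these cells. The part of the limits in the uneven spread was not tested. All intervals reflect counting error and say nothing of how cultures vary.

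The limit did not fall at a gap in the mitochondrial share. In libraries 2 and 4 the non-mitochondrial UMIs fell below the limit already. Their median was 18797 and 15767.5 at 6 to 8%, and 9357.5 and 7491 at 8 to 10%. In libraries 1 to 4, 33, 68, 33 and 55 cells had a share between 9 and 10%, just outside the limit, and 25, 71, 12 and 47 cells had one between 10 and 11%, just inside it. The median share of the members was 11.1%, 13.6%, 12.8% and 13.8%, against 5.4%, 4.10%, 4.51% and 3.51% in the reference. Library 1 stands apart, since its members lay close to the limit and only 8 of them exceeded 15%, against 135, 23 and 99 in libraries 2 to 4. Of the members, 7 carried a barcode sequence that also occurs in another library, and none of these was shared between 2 members.

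**Figure D1:**
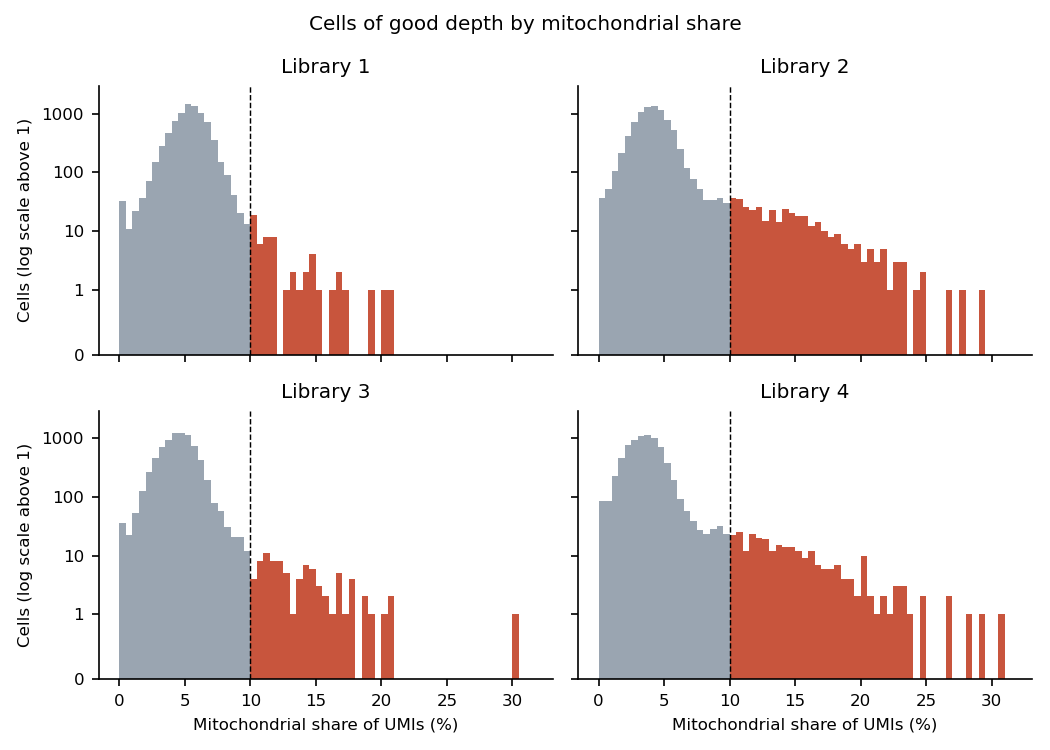
Number of good-depth cells (vertical axis, linear up to 1 and logarithmic above) by mitochondrial share of UMIs (horizontal axis, percent, bins of 0.5) in each library, with the 10% limit dashed, members in red and reference cells in grey. The members form the right-hand tail, which is long in libraries 2 and 4 and sparse in library 1 (59 members) and library 3 (85 members).

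Although they passed the depth limits, the members were shallow. Their median UMI count was 13727, 7767, 8847 and 6989 in libraries 1 to 4, compared with 18378, 21897.5, 19405 and 21437.5 in the reference. The limits themselves were 8261, 6374, 7238 and 5679 UMIs, so that in libraries 2, 3 and 4 most members lay just above them. In those 3 libraries 91.8%, 78.8% and 97.8% of the members had under 12000 UMIs, against 39.0% in library 1 and 4.01% to 7.11% of reference cells over the 4 libraries.

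Both sides of the share differed between members and reference. The median number of mitochondrial UMIs per cell was 1533, 1143, 1273 and 1058 in members and 981, 882.5, 866 and 747 in reference cells, a ratio of 1.56, 1.30, 1.47 and 1.42. The median number of all other UMIs was 12194, 6656, 7561 and 6050 against 17440, 21006.5, 18507 and 20687.5, a ratio of 0.699, 0.317, 0.409 and 0.292. The share was therefore high mainly through few non-mitochondrial UMIs in libraries 2 to 4, and through both in library 1. Most members exceeded their reference's median mitochondrial UMI count in every library (96.6%, 80.9%, 94.1% and 87.3%), yet only 18.6%, 5.57%, 12.9% and 5.09% exceeded its 95th percentile. Conversely, 42.4%, 96.6%, 80% and 97.8% lay under the reference's 5th percentile of non-mitochondrial UMIs. These values follow in part from the rule and are given as a description.

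**Figure D2:**
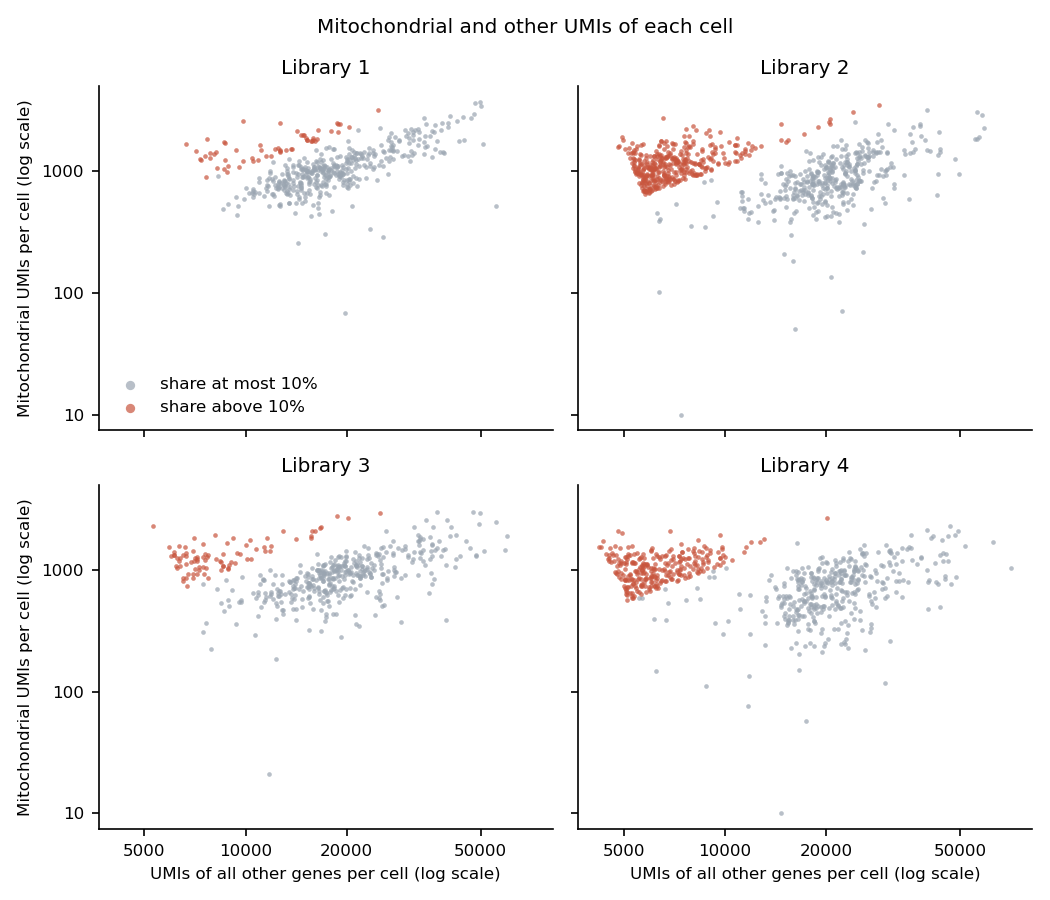
Mitochondrial UMIs (vertical axis, log scale) against UMIs of all other genes (horizontal axis, log scale) for single cells of each library, with members in red and a random subset of reference cells in grey. In libraries 2 and 4 the members form a cloud at low non-mitochondrial UMIs (medians 6656 and 6050) with mitochondrial UMIs like those of reference cells or above, and in library 1 they lie nearer to the reference.

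Members had the transcripts of mESC. The summed level of the 7 core pluripotency genes was 8623, 6550, 7744 and 5696 counts per 1000000 UMIs (CPM) in members and 8262, 6134, 6661 and 5018 CPM in the reference. Dppa5a, Pou5f1, Utf1, Sox2, Sall4, Lin28a and Tdgf1 make up that list. Markers of other cell types were near 0. Primitive endoderm markers summed to 0 to 2.78 CPM over the libraries with Gata6, Sox17 and Foxa2 at 0, and streak markers summed to 3.34 to 9.59 CPM with 2 of 7 at 0. Fibroblast markers summed to 2.61 to 6.12 CPM with 4 of 7 at 0, and two-cell markers to 0 to 6.85 CPM with 4 of 7 at 0, the highest value being 5 UMIs in library 1 (0.551 CPM in its reference). A count of 0 in the members of a library allows up to 4.11, 1.08, 3.91 and 1.67 CPM in libraries 1 to 4. The trophectoderm list reached 32.8 to 86.3 CPM (32.3 to 62.3 CPM in the reference), nearly all from Tfap2c and Tead4, with Elf5 and Hand1 at 0. No marker list of another cell type set members apart from the reference in the same direction in every library.

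To ask which nuclear genes the members held more or less of, counts were summed over members and over reference cells of each library, and their CPM were compared as a log2 ratio, where 0 means equal levels. A gene was assessed when at least 20 counts were expected in the members of every library, and called when its ratio was at least 1.5-fold in 1 direction in all 4 libraries. Of 4232 assessed genes, 78 (1.84%) were called higher in members and 3 (0.0709%) lower. Any difference in the same direction in every library was seen in 1390 genes that were higher (32.8%) and 871 that were lower (20.6%), and these shares are the background for the gene lists below. The excess of higher genes depends on the scaling, since size factors gave 1137 higher and 1138 lower genes, and totals without ribosomal proteins and Malat1 gave 1096 and 1107. The median log2 ratio of assessed genes was 0.02, 0.09, 0.07 and 0.09 in libraries 1 to 4 and its SD over genes 0.30, 0.45, 0.38 and 0.53, so that ratios were compressed in library 1. When ribosomal protein genes and Malat1 were left out of the totals, the median moved to 0.00, -0.01, 0.02 and -0.03, and directions named below for lists near 0 are read against that shift.

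RNAs that stay in the nucleus were higher in members. Malat1 (chr19:5795690-5802672, minus strand, mm10), a long non-coding RNA of nuclear speckles, stood at 7890, 15060, 9488 and 21322 CPM in members and at 4317, 4389, 4423 and 5342 CPM in the reference. Its level was similar in the reference of every library, whereas the members of libraries 2 and 4 stood well above those of libraries 1 and 3. The ratio was 1.83 (1.78 to 1.88), 3.43 (3.40 to 3.47), 2.15 (2.10 to 2.20) and 3.99 (3.95 to 4.03) in libraries 1 to 4. The other assessed nuclear RNAs were also higher in every library without being called, as library 1 stayed under 1.5-fold. Meg3, an imprinted non-coding RNA, had log2 ratios of 0.44, 1.21, 0.72 and 1.39. Kcnq1ot1, the antisense RNA that silences an imprinted cluster, had 0.45, 1.30, 0.58 and 1.4, and Neat1, the scaffold of paraspeckles, had 0.20, 1.46, 1.03 and 1.85.

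Transcripts of a ribosomal RNA repeat on chromosome 17 were higher as well. Gm42418 (chr17:39846958-39848788, plus strand), an annotated non-coding gene that overlaps a ribosomal DNA unit, stood at 2099, 5222, 2965 and 6656 CPM in members against 716, 1331, 632 and 1355 CPM. It was 2.93-fold (2.79 to 3.08), 3.92-fold (3.86 to 3.99), 4.70-fold (4.5 to 4.89) and 4.91-fold (4.82 to 5.0) higher, the largest ratio of any assessed gene in its least favourable library among members and reference as they are. Against a reference weighted towards the depth of the members its log2 ratios were 1.18, 0.67, 1.49 and 0.73, and Hjurp, Gm49504 and Malat1 then had larger ratios in their least favourable library (0.93, 0.80 and 0.71). AY036118 lies on the opposite strand of the same unit (chr17:39847113-39848035), and its log2 ratios of 2.21, 2.97, 2.73 and 3.17 went the same way, although it had too few expected counts to be assessed. The neighbouring Gm26917 (chr17:39843013-39846341), chosen after its values were seen, was called with log2 ratios of 1.28, 0.96, 0.63 and 1.51. Reads of repeated ribosomal DNA copies cannot be assigned to 1 place, so these levels belong to the repeat rather than to a single gene.

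In single cells the same shift was seen across most members of libraries 2 and 4 rather than in a few. Malat1 took a median of 0.757%, 1.41%, 0.930% and 1.73% of the non-mitochondrial UMIs of a member, against 0.374%, 0.375%, 0.364% and 0.436% in reference cells. Of the members, 33.9%, 67.9%, 31.8% and 66.5% exceeded the 95th percentile of the reference. The corresponding share for Gm42418 was 61.0%, 87.8%, 76.5% and 92.0%, so that most members in every library stood above nearly all reference cells in this transcript.

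Cytosolic ribosomal protein transcripts, the most abundant class of short housekeeping messages, were lower. The 84 genes summed to 298094, 206240, 261518 and 204102 CPM in members and to 315709, 278482, 296211 and 287530 CPM in the reference. Their share of RNA was thus 0.944 (0.940 to 0.948), 0.741 (0.739 to 0.743), 0.883 (0.879 to 0.887) and 0.710 (0.708 to 0.712) of the reference level. Of 81 assessed members of the list, 61 were lower in every library and only Rpl18 was higher, although none reached 1.5-fold in all of them. Rpl13 had log2 ratios of -0.17, -0.60, -0.36 and -0.69, and Rps20 had -0.14, -1.0, -0.27 and -1.08. The 78 mitochondrial ribosomal protein genes, which are also nuclear-encoded and translated in the cytosol, had summed log2 ratios of -0.07, -0.17, -0.05 and -0.15, with 13 higher and 28 lower in every library.

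Chaperones of the ER lumen were higher as a group, by less once the reference was weighted towards the depth of the members, as given below. The 15 genes of the ER chaperone and stress list summed to 2354, 5383, 3416 and 5581 CPM in members and to 1852, 2592, 1922 and 2446 CPM in the reference, a ratio of 1.27 (1.21 to 1.33), 2.08 (2.04 to 2.11), 1.78 (1.71 to 1.85) and 2.28 (2.24 to 2.33). Of 11 assessed genes, 10 were higher in every library and none lower. Hspa5, the ER Hsp70 also known as BiP, had log2 ratios of 0.57, 1.57, 1.38 and 1.71. The lectin chaperones Calr and Canx had 0.34, 1.03, 0.79 and 1.12 and 0.49, 1.07, 0.81 and 1.24, respectively, and the ER Hsp90 gene Hsp90b1 had 0.29, 1.00, 0.80 and 1.21. None was called, since library 1 held all of them under 1.5-fold. Sdf2l1 lay on both sides of equality, and Dnajb9, Herpud1, Xbp1 and Hyou1 were not assessed.

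Membrane and secreted proteins were frequent among the genes called higher. Tfrc (chr16:32608920-32632794), the transferrin receptor that imports iron, stood at 57.5, 183, 96.4 and 197 CPM in members and at 31.3, 70.6, 38.0 and 63.2 CPM in the reference. Its ratio was 1.84 (1.32 to 2.49), 2.60 (2.37 to 2.84), 2.54 (1.99 to 3.19) and 3.12 (2.8 to 3.47). Lgr4, a receptor for R-spondins in Wnt signalling, had log2 ratios of 0.91, 1.08, 1.31 and 1.56. The same group held Stt3b, a catalytic subunit of N-glycosylation in the ER (0.85, 1.06, 1.07 and 1.48), the lipid flippase Atp11b (1.02, 1.16, 1.05 and 1.47) and the channel kinase Trpm7 (0.84, 1.01, 0.87 and 1.09).

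The other genes with the largest ratios were mixed in kind. Hjurp, the chaperone that loads the centromeric histone, was 2.11-fold (1.69 to 2.61), 2.28-fold (2.06 to 2.51), 2.45-fold (1.95 to 3.05) and 2.56-fold (2.25 to 2.89) higher. R3hdm1, a putative RNA-binding protein, had log2 ratios of 0.91, 1.19, 0.92 and 1.49. Agk, a lipid kinase of the inner mitochondrial membrane, had 0.90, 1.11, 1.03 and 1.44. The non-coding Gm49504 had 0.86, 1.58, 1.32 and 1.95.

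**Figure D3:**
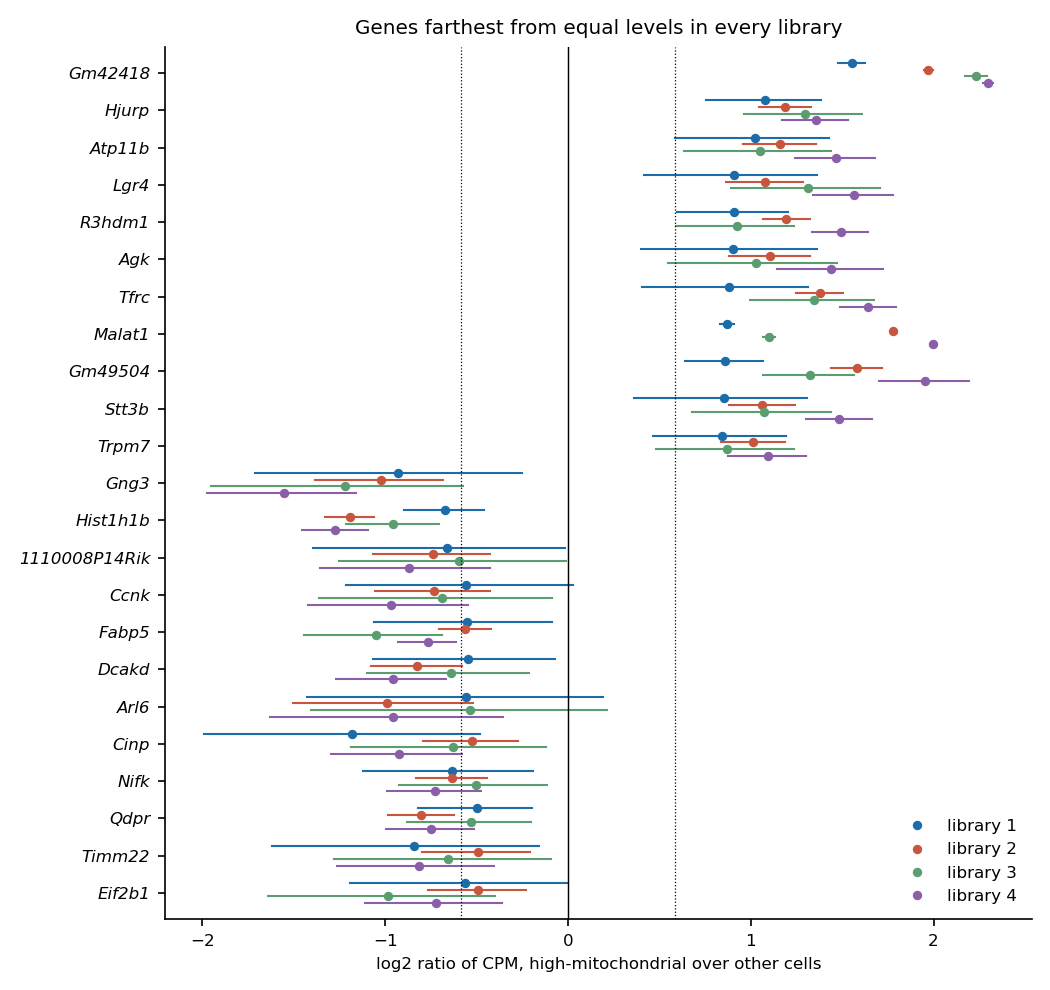
Log2 ratio of CPM in members over reference cells (horizontal axis) for the 11 assessed genes farthest above and the 12 farthest below equality in every library, as points by library with 95% intervals for counting error. Dotted lines mark 1.5-fold. Gm42418 lies farthest right, library 1 is mostly the point nearest to 0 among the higher genes, and the lower genes lie close to the dotted line with wide intervals.

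Further called genes are named here after their values were seen. Among transporters, the neutral amino acid carrier Slc38a2 stood at 162, 500, 236 and 681 CPM in members against 106, 210, 105 and 209 CPM. The cationic amino acid carrier Slc7a3 had log2 ratios of 0.61, 1.35, 1.07 and 1.61. Secreted and adhesion proteins included fibronectin Fn1 (0.75, 1.31, 0.83 and 1.74), the laminin chain Lamc1 (0.78, 1.26, 1.12 and 1.37), the basement membrane protein Nid2 (0.76, 1.16, 1.28 and 1.51) and E-cadherin Cdh1 (0.64, 1.26, 1.2 and 1.39). Apoe, a secreted lipid carrier, was abundant, at 2272, 1381, 2365 and 1024 CPM in members against 1392, 509, 1036 and 320 CPM. Atp2a2, the calcium pump of the ER, had 0.74, 1.05, 0.75 and 1.26. The chromatin regulators Tet2 (0.65, 1.03, 1.00 and 1.61) and Kmt2a (0.59, 0.78, 0.66 and 0.86) were called as well.

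What these genes share was therefore measured on all assessed genes, with properties chosen after the called genes had been seen. Of the 78 called genes, 71 code for proteins, and 48 of these (67.6%) encode a stretch of 19 residues with a mean Kyte-Doolittle hydropathy of at least 1.6, as a signal peptide or a membrane-spanning segment has. Among all 4185 protein-coding genes assessed, 876 (20.9%) do. Windows of 19 residues were scored only where they lay within the first 40 residues or started after them. A stretch found only across that border was thus not counted. The median log2 ratio of genes with a stretch was 0.12, 0.31, 0.20 and 0.36 in libraries 1 to 4, compared with 0.00, 0.04, 0.05 and 0.03 for genes without one. With the limit at 1.4 the medians of genes with a stretch were 0.09, 0.26, 0.17 and 0.30, and with a limit of 2.0 they were 0.17, 0.43, 0.27 and 0.52. Genes whose stretch lay only in the first 40 residues (119 genes) had medians of 0.19, 0.43, 0.23 and 0.48, and genes with one farther on (757 genes) had 0.12, 0.30, 0.19 and 0.34.

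Transcript length went with the ratio too. The assessed protein-coding genes other than those of cytosolic ribosomal proteins were split by transcript length into 5 classes of about 821. The class with the longest transcripts had medians of 0.17, 0.41, 0.24 and 0.45, and the class with the shortest had -0.07, -0.15, -0.07 and -0.19. Called genes had a median transcript of 4876 bases against 2491 over all assessed protein-coding genes, and a median coding length of 2343 against 1146 bases. The difference by stretch remained within the longest class, where genes with a stretch had medians of 0.21, 0.53, 0.31 and 0.61 and those without 0.15, 0.35, 0.23 and 0.41. In the shortest class the values were 0.00, 0.04, 0.02 and 0.01 with a stretch and -0.07, -0.18, -0.09 and -0.23 without. Genes share pathways and are not independent, so these medians describe the libraries and were not tested. The median ratio also went with abundance. It was -0.03, 0.02, 0.03 and -0.01 over genes of at least 50 expected counts. Over genes of at least 5 it was 0.07, 0.20, 0.12 and 0.23. The classes by stretch and length were not compared at equal abundance.

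Only 3 genes were called lower at 1.5-fold. Gng3 (chr19:8836933-8839194), a G protein gamma subunit, was at 23.3, 25.1, 24.8 and 28.9 CPM in members and 44.3, 51.1, 57.6 and 84.8 CPM in the reference, a ratio of 0.525 (0.306 to 0.841), 0.491 (0.383 to 0.621), 0.429 (0.258 to 0.671) and 0.341 (0.254 to 0.447). It rested on 17, 70, 19 and 52 member UMIs. Hist1h1b (chr13:21779883-21780625), a replication-dependent linker histone whose transcript normally lacks a poly(A) tail, had a ratio of 0.626 (0.537 to 0.726), 0.437 (0.398 to 0.479), 0.516 (0.431 to 0.613) and 0.414 (0.365 to 0.468). The uncharacterised 1110008P14Rik had log2 ratios of -0.66, -0.74, -0.60 and -0.87. The next 9 genes, Ccnk, Fabp5, Dcakd, Arl6, Cinp, Nifk, Qdpr, Timm22 and Eif2b1, were lower in every library but not called.

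Nuclear genes of the respiratory chain did not move as a block. The 12 complex IV genes summed to 8408, 11458, 9690 and 11844 CPM in members against 7951, 8384, 7989 and 8709 CPM, a ratio of 1.06 (1.03 to 1.08), 1.37 (1.35 to 1.38), 1.21 (1.19 to 1.24) and 1.36 (1.34 to 1.38). Of its genes 6 were higher in every library and none lower. Cox4i1, a core regulatory subunit, had log2 ratios of 0.27, 0.99, 0.63 and 1.17, whereas Cox6a1 was equal in library 1 and had 1.18, 0.53 and 1.32 in the others. Complex I genes had summed log2 ratios of 0.02, 0.13, 0.15 and 0.10, with 13 of 36 higher and 6 lower in every library. That count of higher genes, like the list's ratios, lies near the background, and with ribosomal proteins and Malat1 out of the totals the sum was 0.00, 0.01, 0.09 and -0.03. Complexes II and III (0.01, -0.06, 0.03 and -0.12) and ATP synthase (-0.05, -0.05, 0.07 and -0.07) lay on both sides of 0. In ATP synthase the catalytic subunit Atp5b was higher (0.25, 0.45, 0.53 and 0.72) and the membrane subunit gene Atp5g1 lower (-0.22, -0.35, -0.23 and -0.46).

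Genes that make or maintain mitochondria were mixed. The 27 genes for copying and expressing mitochondrial DNA had summed log2 ratios of 0.08, 0.14, 0.14 and 0.19, and of 15 assessed only Polg, the mitochondrial DNA polymerase, was called (0.99, 0.66, 0.98 and 0.92). Mitochondrial chaperones and proteases had -0.01, 0.33, 0.27 and 0.34, with 6 of 10 assessed genes higher and none lower in every library and the inner membrane protease Spg7 called (0.81, 0.86, 0.76 and 1.36). Hspd1, the mitochondrial Hsp60, had -0.01, 0.56, 0.45 and 0.55. The biogenesis factors had 0.15, 0.21, 0.35 and 0.27 over 9 genes, of which 4 were assessed. Dynamics and mitophagy genes had -0.05, -0.18, -0.06 and -0.16, with 2 of 15 assessed genes higher and 9 lower in every library, the latter above the background share of 20.6%.

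Stress programmes outside the ER differed in size and direction between lists and libraries. The integrated stress response list, whose targets follow Atf4, had summed log2 ratios of -0.01, 0.10, 0.04 and 0.04. The p53 targets had 0.02, -0.22, -0.29 and -0.28, with Bax, a pore-forming cell death gene, at -0.25, -0.51, -0.35 and -0.74. Apoptosis machinery had 0.04, 0.18, 0.14 and 0.22 with 5 of 16 genes assessed, and oxidative stress genes had -0.04, -0.16, 0.02 and -0.12. The cytosolic heat shock list had 0.02, 0.35, 0.15 and 0.37, led by Hsp90aa1 at 0.08, 0.47, 0.36 and 0.57. Immediate early genes, which respond within minutes to handling, had 0.04, -0.05, -0.18 and -0.31. In single genes, 3 of 8 assessed heat shock genes were higher and 2 lower in every library, against 4 and 3 of 12 in the integrated stress response, 1 and 3 of 8 among p53 targets and 3 and 9 of 19 in the oxidative stress list. The median over genes differed in sign from the sum in some libraries, for example in library 1 for heat shock (-0.09) and in library 2 for the integrated stress response (-0.11) and the immediate early genes (0.15). No gene of these 6 lists was called in either direction.

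The metabolic lists were mixed. The glycolysis list had 8 of 18 assessed genes higher and 5 lower in every library, with medians of 0.05, 0.28, 0.20 and 0.24. Its sum had the opposite sign, at -0.03, -0.10, -0.07 and -0.11, and its most abundant enzymes Gapdh (-0.18, -0.60, -0.47 and -0.61) and Aldoa (-0.10, -0.24, -0.16 and -0.41) were lower in every library. Its 3 called genes encode membrane transporters, namely the glucose carrier Slc2a1 (0.81, 0.89, 0.61 and 0.93) and the lactate carriers Slc16a1 (0.80, 0.76, 1.24 and 1.06) and Slc16a3 (0.70, 0.97, 0.68 and 0.90). The cholesterol list had sums of 0.15, 0.53, 0.27 and 0.54 and medians over genes of 0.21, 0.57, 0.43 and 0.76. It had 7 of 11 assessed genes higher and 2 lower in every library. Its enzyme Hmgcs1 had 0.21, 0.31, 0.14 and 0.10, whereas Fdps, the most abundant, lay near equality at -0.07, 0.02, -0.08 and -0.10 and squalene synthase Fdft1 was lower at -0.40, -0.18, -0.20 and -0.12.

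The naive pluripotency list had summed log2 ratios of 0.11, 0.17, 0.29 and 0.36, and medians over genes of 0.07, -0.05, 0.22 and 0.34. Of its 7 assessed genes 3 were higher in every library, namely Klf2 (0.24, 0.25, 0.47 and 0.50), Klf5 and Zfp42, and none was lower. The formative list, of which 2 of 10 genes were assessed, had -0.09, 0.06, -0.39 and -0.07 and its gene Dnmt3b -0.48, -0.04, -0.52 and -0.23. After thinning each cell to 4000 non-mitochondrial UMIs, for which no cell was too shallow, the naive sum exceeded the formative sum in 93.2%, 78.0%, 89.4% and 49.1% of members and in 95%, 73.8%, 77.0% and 40.3% of reference cells. Unthinned, the shares were 94.9%, 80.1%, 89.4% and 52.7% against 95.8%, 78.0%, 79.8% and 43.2%. The part of free RNA in these per-cell calls was not tested. At the same thinned depth members held more distinct genes, with medians of 1742, 1931, 1846 and 1958 against 1670, 1758, 1695 and 1744, the reverse of the unthinned order (3389, 2698, 2827 and 2583 against 4056, 4588.5, 4202 and 4550). Detected genes were part of the rule, which bears most on shallow cells. These medians may therefore follow in part from it and are given as a description.

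The S phase list had log2 ratios of 0.03, 0.26, 0.18 and 0.25 and the G2/M list 0.01, 0.26, 0.27 and 0.35, with 11 of 18 G2/M genes higher and 2 lower in every library. Among cells under 12000 UMIs the G2/M ratio was larger, at 1.19, 0.58, 0.92 and 0.68. Within the list the kinetochore gene Cenpf had 0.19, 0.74, 0.68 and 0.87, and the ubiquitin-conjugating enzyme Ube2c had -0.20, -0.43, 0.04 and -0.38. The serum response factor and keratin list had 0.05, -0.19, -0.71 and -0.39, a sum made up mostly of Actb and Actg1. Without these genes it was 0.66, 0.02, -1.61 and -0.34, with medians of 0.28, 0.16, -0.68 and 0.09 over the 5 of 16 genes that were assessed, of which 1 was higher in every library. Sum and median thus differ in sign in library 4. Srrm2, the gene trapped in the hKO line, was at 420, 959, 296 and 588 CPM in members and 409, 556, 249 and 368 CPM in the reference. Its ratio was 1.03 (0.916 to 1.15), 1.73 (1.66 to 1.79), 1.19 (1.04 to 1.35) and 1.6 (1.5 to 1.7), and it was not called. The nuclear speckle and SR protein list had log2 ratios of 0.09, 0.39, 0.24 and 0.45, with 8 of 14 assessed genes higher and none lower in every library.

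Levels in CPM cannot show whether a member holds more of an RNA or only less of the rest, so mean UMIs per cell, a measure chosen after the levels had been seen, were compared as well. Per cell, 4126 of the 4232 assessed genes (97.5%) were lower in members in every library, which follows in part from the depth of the members. Gm42418 was the single assessed gene that was higher per cell in every library, with 26.0, 38.6, 26.8 and 43.5 UMIs against 13.9, 30.0, 13.2 and 30.5. Malat1 was near equal, with 97.7, 111, 85.7 and 139 UMIs in members and 84.0, 99.0, 92.4 and 120 in reference cells. Mitochondrial transcripts, used by the rule, stood at 1670, 1209, 1396 and 1090 against 1089, 961, 957 and 808.

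Within a library a per-cell ratio is the CPM ratio times 1 constant (0.636, 0.328, 0.432 and 0.290 in libraries 1 to 4), so the order of gene groups is that of their levels and only the distance from equality is added. Nuclear-retained RNAs stood at 1.12, 1.07, 0.897 and 1.10 of the reference and the ER list at 0.809, 0.681, 0.768 and 0.663. The nuclear-retained sum was mainly Malat1, with 97.7 of 109, 111 of 127, 85.7 of 96.2 and 139 of 157 UMIs per member. Its ratio therefore says little of the other RNAs in that list. Complex IV genes followed at 0.673, 0.448, 0.524 and 0.395, and genes with a hydrophobic stretch at 0.679, 0.404, 0.494 and 0.367, slightly above complex IV in library 1. Genes with neither a stretch nor a ribosomal protein product stood at 0.625, 0.329, 0.432 and 0.288, and ribosomal protein genes came last at 0.600, 0.243, 0.382 and 0.206. Core pluripotency genes (0.664, 0.350, 0.503 and 0.330) lay below the genes with a stretch in libraries 1, 2 and 4 and above them in library 3. ATP synthase genes (0.612, 0.316, 0.454 and 0.277) lay below the genes without one in libraries 1, 2 and 4 and above them in library 3. In library 1, whose members were deeper, the last 4 groups lay within a narrow range. The place of each RNA in the cell was not measured here.

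**Figure D4:**
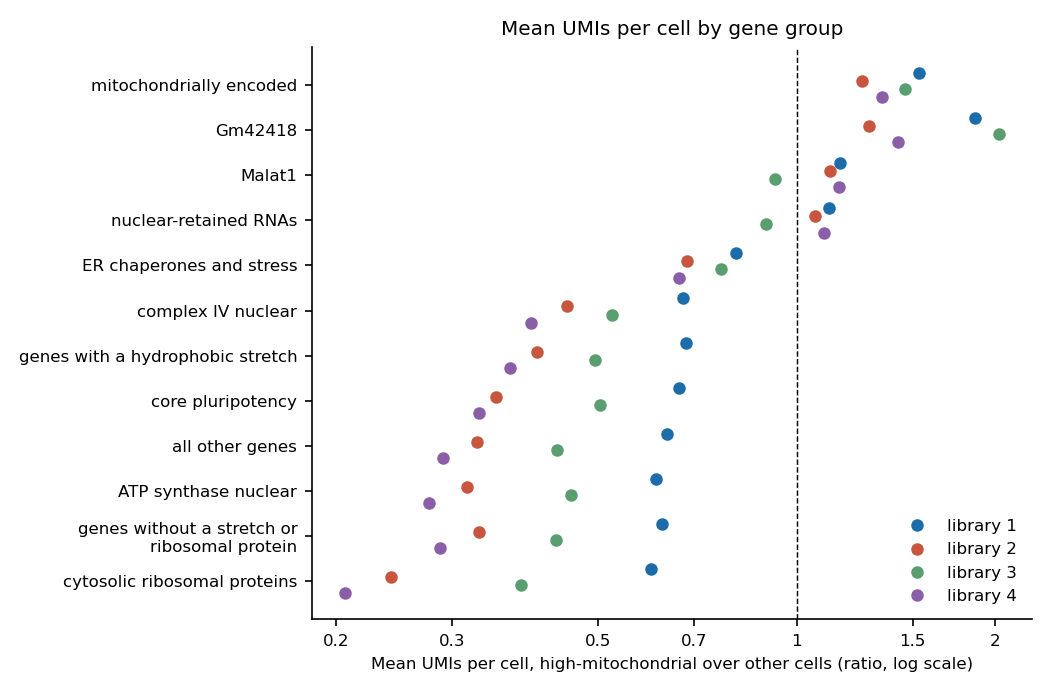
Mean UMIs per cell in members divided by that in reference cells (horizontal axis, log scale) for groups of genes, as points by library, with equality dashed. Mitochondrial transcripts and Gm42418 lie above 1 in every library, nuclear-retained RNAs (mostly Malat1) lie around 1, and ribosomal protein genes lie lowest, at 0.206 in library 4.

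Levels were also compared between bands of the mitochondrial share. Malat1 was higher in each successive band of members in every library. In library 2 it stood at 5133 CPM in reference cells with a share of up to 2% and at 4141, 4389 and 5231 CPM in those of 2 to 4%, 4 to 6% and 6 to 8%. Its level was 8143 CPM in cells of 8 to 10%, still in the reference, and at 10423, 16560 and 19188 CPM in members of 10 to 12%, 12 to 15% and over 15%. Library 4 gave 4888, 5277, 5389, 7557 and 11068 CPM for the 5 reference bands and 15939, 23112 and 25109 CPM for the 3 member bands. Library 3 stood at 5227 CPM in the lowest band, at 4181 CPM at 6 to 8%, and at 6230, 11505 and 13236 CPM in the member bands. Library 1 reached 9973 CPM over 15%, from 8 cells. Ribosomal protein transcripts in library 2 stood at 249806 CPM in the 8 to 10% band and at 229450, 200874 and 183410 CPM in the 3 member bands. In library 3 members of 10 to 12% held 306997 CPM, and those of the next bands 231451 and 212429 CPM. The first value was above the pooled reference (296211 CPM) but below its 6 to 8% band (314325 CPM). The ER list in library 2 already reached 4167 CPM at 8 to 10% and was nearly flat across the members, at 5320 to 5520 CPM, whereas in library 3 it went from 2476 to 3975 and 4537 CPM. Gm42418 was higher over 15% than at 12 to 15% in libraries 2 (5754 against 5231 CPM) and 4 (7417 against 6637 CPM), and the reverse held in libraries 1 (3054 against 3177 CPM) and 3 (3465 against 3851 CPM). Depth moved with the share, as the median of non-mitochondrial UMIs in library 2 was 18797 in the 6 to 8% band, 9358 at 8 to 10% and 7460, 6722 and 6224 in the member bands.

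**Figure D5:**
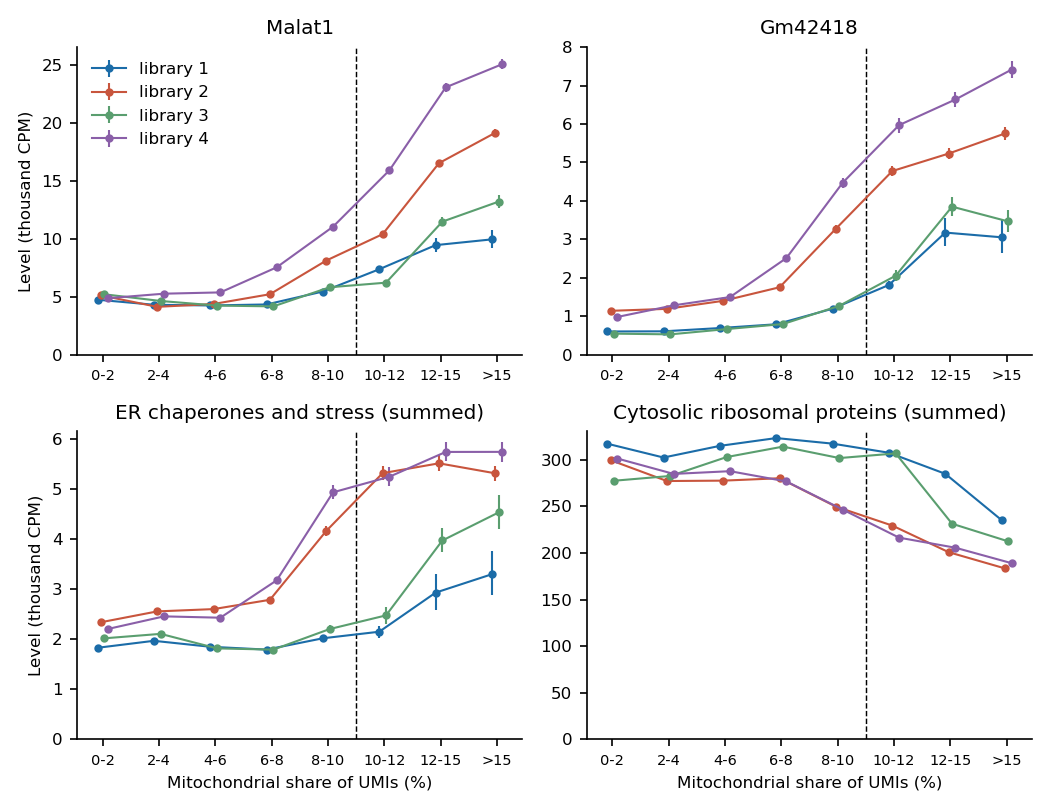
Level in units of 1000 CPM (vertical axes, from 0) of Malat1, Gm42418, the ER list and the ribosomal protein list by band of mitochondrial share (horizontal axis, percent) in each library, with 95% intervals for counting error and the 10% limit dashed. Malat1 and Gm42418 stand above the neighbouring lower band in the 8 to 10% band of every library, below the limit. Gm42418 already does so at 4 to 6% and at 6 to 8% in every library. At 6 to 8% Malat1 does so in libraries 2 and 4 (5231 against 4389 CPM and 7557 against 5389 CPM) and, slightly, in library 1. Library 1 has 8 and library 3 has 23 cells over 15%.

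Because members were shallower than the reference, the calls, the gene lists, the named genes and the classes of genes by stretch and length were recomputed at nearer depths. The bands of mitochondrial share, the make-up of the mitochondrial transcripts and the values per cell were not. With reference cells weighted towards the depth of the members, 30 genes were called higher and 1 lower, of which 25 and 1 were among the 78 and 3 called before. With both classes held under 12000 UMIs, 26 of fewer assessed genes (1382) were called higher and 15 lower, and these held 7 of the 14 genes called higher before that could be assessed. Malat1 remained higher, with log2 ratios of 0.75, 1.00, 0.71 and 1.08 under the weights and 1.00, 1.11, 0.98 and 1.17 under 12000 UMIs. The log2 ratios of Gm42418 under 12000 UMIs were 1.57, 0.81, 1.46 and 0.85, smaller in libraries 2 to 4 than with all good-depth cells. The ER list had ratios of 0.33, 0.43, 0.76 and 0.35 under the weights. Ribosomal proteins stayed lower at -0.11, -0.34, -0.22 and -0.37 under the weights and at -0.28, -0.48, -0.39 and -0.47 under 12000 UMIs. Of the 12 genes with the largest ratios Atp11b (1.10, 0.56, 0.95 and 0.90), Agk (0.87, 0.48, 1.11 and 1.01), Stt3b (0.82, 0.37, 0.82 and 0.80) and Trpm7 (0.77, 0.92, 0.79 and 0.50) were no longer called under the weights, each with 1 library under 1.5-fold. Of the further genes named above, Lamc1, Nid2, Cdh1, Tet2 and Spg7 were still called under the weights, and Slc38a2, Slc7a3, Fn1, Apoe, Atp2a2, Kmt2a, Gm26917, Polg, Slc2a1, Slc16a1 and Slc16a3 were not. All of these still had ratios above 0 in every library. Some stayed near the limit, such as Slc38a2 (0.55, 0.67, 0.82 and 0.98) and Atp2a2 (0.72, 0.55, 0.76 and 0.57), whereas Slc2a1 went to 0.77, 0.43, 0.47 and 0.15 and Slc16a3 to 0.68, 0.28, 0.71 and 0.01. Of the lower genes only Hist1h1b was still called (-0.63, -0.78, -0.72 and -0.76). The weighted reference was still deeper than the members, so that depth and membership cannot be told apart fully. Its mean non-mitochondrial UMIs were 13697, 9135, 10678 and 8578 against 12378, 7393, 9030 and 6538. Weighting left the equivalent of 1574, 133, 187 and 205 reference cells, and no interval is given for the weighted ratios. In libraries 2 and 4 reference cells of 8 to 10% share were themselves shallow (medians 9357.5 and 7491) and high in Malat1 (8143 and 11068 CPM). How far counting noise or such cells moved the weighted ratios was not tested.

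The difference by hydrophobic stretch was also present at nearer depths. Genes with a stretch had medians of 0.12, 0.19, 0.20 and 0.22 under the weights, and genes without 0.01, 0.04, 0.08 and 0.04. Under 12000 UMIs the medians were 0.24, 0.28, 0.28 and 0.28 against 0.07, 0.10, 0.15 and 0.06. They kept all 876 and 3309 genes, although only 1382 genes had enough expected counts to be assessed there. Library 1 then had 23 members. For genes with a stretch, the libraries lay closer together in this setting than among all members. By length, the longest class had medians of 0.19, 0.34, 0.23 and 0.37 under the weights and the shortest -0.05, -0.13, -0.01 and -0.13. Under 12000 UMIs the longest class had 0.27, 0.48, 0.34 and 0.45. The shortest then had 0.02, -0.13, 0.03 and -0.14, on both sides of 0.

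Barcodes under the depth limits resembled the members in part. Among barcodes of low depth, 969, 2064, 1106 and 1595 had a share above 10%, with medians of 30.6%, 19.8%, 24.2% and 19%. Against the same reference, their log2 ratios were 2.08, 2.00, 1.94 and 2.14 for Malat1, 1.17, 1.13, 1.11 and 1.15 for the ER list and -0.58, -0.47, -0.52 and -0.52 for ribosomal proteins. For these 3 the members of libraries 2 and 4 came near to the low-depth ratios and those of library 1 lay well short of them. Gm42418 was higher in the low-depth barcodes, at 3.06, 2.81, 2.99 and 3.12, than in the members of any library. Low-depth barcodes of at most 10% also had high Malat1 (0.81, 1.84, 0.96 and 1.76) and Gm42418 (2.16, 3.03, 2.33 and 3.18, above the members in each library) but ER ratios of only 0.13, 0.57, 0.19 and 0.52 and ribosomal protein ratios of -0.03, -0.18, 0.03 and -0.16.

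The make-up of the mitochondrial transcripts themselves, which the rule did not use, differed slightly. mt-Co3, a subunit of complex IV, was the largest part in both classes, with 24.9%, 19.8%, 22.5% and 20.1% of mitochondrial UMIs in members and 24.3%, 18.6%, 21.9% and 19% in the reference. mt-Atp6 took 1.14, 1.13, 1.12 and 1.14 times its reference share. mt-Co1 took 0.955, 0.822, 0.895 and 0.824 times and mt-Cytb 0.897, 0.911, 0.917 and 0.862 times theirs. mt-Nd6 (mitochondrial genome, positions 13552 to 14070), the only one of the 13 genes on the opposite strand, differed most, at 1.82, 1.39, 1.68 and 1.54 times its reference share, but it made up at most 0.212% of mitochondrial UMIs.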

How the data were processed

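UMI counts were the deposited values. The authors aligned each library to mm10 with Cell Ranger 6.1.2 and joined the 4 libraries with its aggregation step at default settings, which subsamples reads to a similar depth, so that differences in sequencing depth between libraries were reduced before deposit. Cell Ranger counts reads on the strand of the gene. The deposited matrix held 32285 genes and 41142 barcodes, and the study's cell filter, which removes the cells described here, had not been applied to it. Totals of the members without mitochondrial genes were 730277, 2787043, 767518 and 1797892 UMIs in libraries 1 to 4.

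Counts were summed per library and class and divided by the total without mitochondrial genes (CPM). Intervals are exact at 95% (Poisson, Clopper-Pearson, or conditional binomial for ratios) and, like the floor of 3 counts, cover counting error only. The planned design held no test, since no library could be assigned to a sample. Named genes were the 12 with the largest ratio in their least favourable library in each direction, the most abundant genes of each list, called genes of a list, the mitochondrially encoded genes and Srrm2. Some genes named by this rule are not reported here. The members and lists were chosen with earlier results of these data known. Doublets were not called, and cells above 2 times the median UMI count were left out as an alternative. Cells were thinned without replacement. Gene models and translated coding sequences were from GENCODE M21 (GRCm38), which held 4231 of the 4232 assessed genes. Python 3.11.15, numpy 2.4.6, pandas 2.3.3 and scipy 1.17.1 were used, and the procedure was tested on simulated data. Folds of 1.25 and 2 were among the alternatives tried.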

Additional observations from a re-analysis of the deposited data

How the results depend on the processing

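No paired analysis was possible because the matrix carries library numbers without sample or replicate labels and no test was made. The number of members was 1287, 522 and 265 with the limit on the mitochondrial share at 8%, 12% and 15%, and 1971 with the depth limits set on log10 values. Genes called higher and lower numbered 29 and 1 of 7221 assessed at 8% and 36 and 18 of 1177 at 12%. They numbered 11 and 27 of 471 at 15%, and 316 and 22 of 5693 with log10 limits. The share called lower was thus 1.53% at 12% and 5.73% at 15%, against 0.0709% at 10%. The share called higher was 3.06% and 2.34%, against 1.84%. Library 1 then had only 18 and 8 members, under the planned minimum of 50. At 8% all 78 genes called higher were assessed, but only 6 of them were among the 29, and none of the 3 lower genes was called. Gm42418, Hjurp, Gm49504 and Lamc1 were still called at 8%. Malat1 (0.48 in library 1), Tfrc, Lgr4, Stt3b, Atp11b, R3hdm1, Agk and Trpm7 were not. At 12% and 15%, where 8 and 3 of the 78 could be assessed, 7 and 3 were called again, and with log10 limits 75 were. Setting the depth limits on counts without mitochondrial genes gave 50 higher genes, weighting the reference to the members' depth gave 30 and 1, and keeping cells under 12000 UMIs (added after seeing the data) gave 26 and 15. The mean of shares over cells gave 99 and 6, size factors 53 and 6, and totals without ribosomal proteins and Malat1 (added after seeing the data) 54 and 8. A reference of 5 to 10% share gave 56 and 2, naive cells alone 58 and 3, and leaving out cells above 2 times the median UMIs 78 and 2. Requiring 5, 10 or 50 expected counts gave 237 and 14, 157 and 10, and 16 and 1 genes, and no filter gave 528 and 21. These settings assessed 8072, 6195, 2075 and 11392 genes. The lower fold limit gave 321 and 64, and a fold of 2 gave 3 and 0. Leaving out 1 library at a time gave 79 to 283 higher and 3 to 53 lower genes. The upper ends come from leaving out library 1, whose 59 members had the smallest ratios, and without library 3 the counts were 128 and 11. The cause of these shifts was not tested, except that other filters change how many genes were assessed. Of 994 further values of lists and named genes under these settings, 632 moved by less than their counting interval, 362 moved by more, and none reversed a called direction. Of the 78 genes called higher, all that could be assessed kept their direction in each setting, except 1 under the depth weights.

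Library 1 and library 3 hold 730277 and 767518 member UMIs, so genes under about 20 expected counts could not be assessed there. The members are shallower than the reference, and some depth bins held no reference cell, so depth was matched only in part. Reads were subsampled before deposit, free RNA was not estimated, and each library is a single culture of unassigned genotype, with sources that differ on its time in serum-free medium.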
